A study of Homo sapiens with 14 samples.

Results

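The genes of oxidative phosphorylation (OXPHOS) were followed in 2 prostate cancer cell lines, LNCaP and DU145. Nuclear members were all genes whose symbols name a subunit of complex I (NDUFA, NDUFB, NDUFC, NDUFS and NDUFV numbers), complex II (SDHA to SDHD), complex III (UQCR) or complex IV (COX4 to COX8 with a letter, such as COX6A1), and the remaining members were the 13 protein-coding genes of the mitochondrial chromosome. This rule found 83 genes in the LNCaP table of 44591 genes and 77 in the DU145 table of 24199 features. Both tables hold the same 63 nuclear subunit genes and 13 mitochondrially encoded genes, and the rest are retrocopies or pseudogenes, 7 in the LNCaP table and 1 in the DU145 table. The symbol rule leaves out COX4I1, CYC1 and cytochrome c, which are given with the related lists. LNCaP is a hormone-sensitive line, and it was compared as parental cells in medium without drug (LNCaP control, 1 library) and as a derived line kept in 20 µM enzalutamide, a drug for prostate cancer (LNCaP-ENZ, 1 library), for which the series text gives 30 days of treatment. DU145 is a hormone-insensitive line, and it was compared after stable lentiviral transduction with a non-target short hairpin RNA (shCON, 3 libraries) or a hairpin against the transcription factor PAX6 (shPAX6, 3 libraries). Which of the hairpins to PAX6 was used is not given for the libraries, and the knockdown lines are subclones.

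The respiratory chain sits in the inner mitochondrial membrane. Complex I oxidises NADH and complex II oxidises succinate, both pass electrons through ubiquinone to complex III, cytochrome c carries them to complex IV, and ATP synthase uses the proton gradient that complexes I, III and IV build. Complexes I, III and IV and ATP synthase are built from subunits of both genomes, whereas complex II is nuclear only. The mitochondrial genes are transcribed as long precursors from each strand and cut apart at the tRNAs between them, and their mRNAs carry poly(A) tails, so they appear in poly(A)-selected libraries. Normal prostate epithelium is known for exporting citrate rather than oxidising it, and prostate cancer cells for oxidising it again.

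At 3 places the mitochondrial genes share bases, and a read from there cannot be given to 1 gene alone. MT-ATP6 and MT-CO3 share 1 base, at position 9207. The sequences of the other two places are shown because MT-ATP8, MT-ATP6 and MT-ND4L give some of the largest values described below. The shared bases are in capitals, with 12 bases on either side, on the plus strand of the GRCh37 mitochondrial chromosome, which has 16569 bases as in the deposited coordinates. The overlap of MT-ATP8 (chrM:8366-8572) and MT-ATP6 (chrM:8527-9207) is 46 bases, and that of MT-ND4L (chrM:10470-10766) and MT-ND4 (chrM:10760-12137) is 7 bases, and each opens with the ATG of the second gene.
MT-ATP8 and MT-ATP6, chrM:8515-8584: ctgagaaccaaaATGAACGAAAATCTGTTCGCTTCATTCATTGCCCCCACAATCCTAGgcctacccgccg
MT-ND4L and MT-ND4, chrM:10748-10778: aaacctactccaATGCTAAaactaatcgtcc
MT-ND6 (chrM:14149-14673) lies on the minus strand and meets the end of MT-ND5 (chrM:12337-14148). The strand setting of the counting is not given, so reads there cannot be assigned by strand. Part of the mitochondrial chromosome also has a nuclear copy on chromosome 1. In windows of 50 bases, MT-ND2, MT-ATP8 and MT-ATP6 matched the first 1000000 bases of that chromosome at 47 or more bases in all their windows, MT-CO1 in 29 of 30, MT-CO2 in 12 of 13, MT-CO3 in 10 of 15 and MT-ND1 in 6 of 19. MT-ND3, MT-ND4L, MT-ND4, MT-ND5, MT-ND6 and MT-CYB matched in 0 windows. How reads that fit both places were counted is not given in the sources used here.

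The promoters of the nuclear members were searched for 4 short motifs. The 150 bases before the RefSeq start of the gene with the highest shCON level per length in each nuclear group are printed 5′ to 3′ on the strand of the gene, in GRCh38.p14 coordinates, with matches to the searched motifs in capitals.
NDUFS8, chr11:68030531-68030680: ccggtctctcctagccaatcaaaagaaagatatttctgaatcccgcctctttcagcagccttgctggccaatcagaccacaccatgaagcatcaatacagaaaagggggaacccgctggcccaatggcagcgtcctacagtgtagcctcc
NDUFA11, chr19:5903791-5903940: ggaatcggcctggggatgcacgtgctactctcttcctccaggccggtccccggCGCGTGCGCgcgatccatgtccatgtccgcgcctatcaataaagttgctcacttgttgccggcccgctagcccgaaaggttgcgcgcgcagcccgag
SDHA, chr5:218170-218319: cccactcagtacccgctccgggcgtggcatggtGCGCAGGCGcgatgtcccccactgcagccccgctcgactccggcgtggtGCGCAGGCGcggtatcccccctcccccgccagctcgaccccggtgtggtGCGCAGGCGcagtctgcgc
UQCRH, chr1:46303548-46303697: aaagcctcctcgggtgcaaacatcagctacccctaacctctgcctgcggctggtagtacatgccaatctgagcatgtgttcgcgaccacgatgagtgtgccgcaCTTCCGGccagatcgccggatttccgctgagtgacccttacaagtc
COX6A1, chr12:120437963-120438112: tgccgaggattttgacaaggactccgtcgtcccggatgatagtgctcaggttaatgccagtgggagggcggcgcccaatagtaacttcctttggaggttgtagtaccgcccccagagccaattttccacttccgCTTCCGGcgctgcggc
SDHA holds 3 matches to the core of the NRF1 motif and NDUFA11 holds 1, UQCRH and COX6A1 hold 1 match each to the ETS motif that GABPA reads, and NDUFS8 holds none. NRF1 and GABPA are known regulators of respiratory chain genes. Of the 63 nuclear members, 53 had a promoter in the table, and both strands of the window from 250 bases before to 50 bases after the start were searched. The NRF1 core (GCGCANGCG) was in 16 of the 53 windows (30.2%) against 8.05% of all 27305 promoters, the ETS motif (CCGGAAG) in 14 (26.4%) against 10.7%, the YY1 motif (AAGATGGCG) in 7 (13.2%) against 1.85%, and the Sp1 motif (GGGCGGG) in 13 (24.5%) against 32.9%. At least 1 of these 4 was in 37 of 53 windows (69.8%) and in 41.9% of all. No motif lies within another, but their ends can share bases, since CCGGAAG ends in the letters with which AAGATGGCG begins. The counts per motif are thus not fully separate, and a match is a description of letters only.

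The LNCaP libraries hold 20468001 (control) and 17945722 (ENZ) gene counts, and the depth of the DU145 libraries is unknown, since their table gives values per length and library size. Nothing states that the replicates came from separate cultures, so p-values measure the spread between these libraries, which may be technical. PAX6 was listed at 0.839, 1.23 and 1.57 FPKM in shCON and at 0.0153, 0.274 and 0.0778 FPKM in shPAX6, groups that do not overlap (adjusted p = 0.0539, limma), and at 11 and 4 counts in LNCaP control and ENZ. The lines carry epithelial markers: the keratins KRT8 and KRT18 were at 405 counts or more in LNCaP and at 492 FPKM or more in DU145, and the prostate marker FOLH1 had 8171 and 7894 counts in LNCaP and was at 0 in DU145. Of the 3 basal markers KRT5 was at 0 in every library of both lines, and KRT14 and TP63 had 3 and 1 counts in LNCaP control and were at 0 elsewhere. Of the 3 fibroblast markers COL1A2 and DCN were at 0 in every library, and COL1A1 had 456 and 231 counts in LNCaP control and ENZ and 0.303 to 0.706 FPKM in DU145. In DU145 the libraries differed with transcript length: the rank correlation between transcript length and the deviation from the library means, over 12009 features, was -0.611 in shPAX6 library 1, 0.608 in shPAX6 library 2 and between -0.203 and 0.278 in the other 4 libraries. In bulk RNA, fewer cells that use a gene and less RNA per cell cannot be told apart.

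In LNCaP-ENZ the nuclear subunit genes stayed near their control level, while most mitochondrially encoded genes were higher. Of the 58 nuclear subunit genes with a mean of at least 1 CPM (counts scaled to the library total), 57 lay within 1.5-fold and 1, NDUFA5, was lower by more. Among all 14767 genes at that minimum, 6.49% were higher and 24.1% lower past 1.5-fold, and 25.2% were past it either way among the 11004 genes with a mean of at least 5 CPM. With TMM scaling 6 of the 58 were past it, against 28.6% of all genes. The nuclear members had a median log2 ratio of 0.05 (34 higher, 24 lower) beside -0.15 for all genes. The split was 47 higher and 11 lower with TMM scaling, and 26 higher and 32 lower in the deposited TPM, where the nuclear median was -0.04 beside -0.23 for all genes. The 13 mitochondrially encoded genes had a median of 0.35, with 11 higher and 2 lower. With 1 library per arm there is no test, and each interval given is an exact 95% interval that covers counting error only. TMM scaling, or setting the median of expressed genes to 0, adds about the shift of all genes: with TMM the medians were 0.20 for nuclear and 0.50 for mitochondrially encoded members, and -0.01 for all genes, so the distance of each set from all genes hardly moved.

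The mitochondrially encoded genes together took 6.72% of the control counts (1374463) and 8.52% of the ENZ counts (1529586). Among them the largest ratios belonged to the ATP synthase subunits. MT-ATP8 went from 16609 counts (4092 TPM) to 32011 (8475 TPM), a log2 ratio of 1.14 (1.11 to 1.16). MT-ATP6, which shares its mRNA with MT-ATP8, went from 58264 counts (4364 TPM) to 91029 (7326 TPM), a log2 ratio of 0.83 (0.82 to 0.85). The next genes along the same strand did not share this: MT-CO3 had 140825 and 120834 counts (log2 ratio -0.03, or -0.04 to -0.02) and MT-ND3 had 22312 and 12358 counts (-0.66, or -0.69 to -0.63), the only mitochondrially encoded gene lower by more than 1.5-fold by library total. With TMM scaling MT-ND3 was at -0.52, within 1.5-fold, and 5 of the 13 genes were past it, all higher (MT-ATP8, MT-ATP6, MT-ND4L, MT-ND2 and MT-ND4). Of all genes 10.8% were higher past it with that scaling. MT-CO3 was above 0 with TMM scaling (0.12), with the median of expressed genes at 0 (0.12) and with the 10 most counted genes left out of the total (0.01).

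The other complex IV core subunits of the mitochondrial genome were higher in ENZ. MT-CO1, which holds the site where oxygen is reduced, had 266055 and 298128 counts (log2 ratio 0.35). MT-CO2, which takes electrons from cytochrome c, had 187080 and 221334 counts (0.43), and was the mitochondrial gene with the highest level per length in both libraries (13950 and 17734 TPM). MT-CYB, the cytochrome b of complex III, had 118532 and 122234 counts (0.23). Of the complex I subunits, MT-ND4L had 6627 and 8501 counts (0.55), MT-ND2 93171 and 117683 (0.53), MT-ND4 154576 and 186099 (0.46) and MT-ND1 134816 and 147787 (0.32). MT-ND6, on the other strand, had 31417 and 33349 counts (0.28), and MT-ND5 had 144179 and 138239 (0.13). No interval of a mitochondrially encoded gene included 0. The 3 genes whose windows all match the chromosome 1 copy, MT-ATP8, MT-ATP6 and MT-ND2, stand at 1.14, 0.83 and 0.53. Those that match in part, MT-CO1, MT-CO2, MT-CO3 and MT-ND1, stand at 0.35, 0.43, -0.03 and 0.32. The 6 genes with no matching window lie between -0.66 and 0.55, and the part of that copy in these values was not tested. The mitochondrial rRNA genes RNR1 and RNR2 had 3 and 4 counts in control and 0 in ENZ.

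The core subunits of complex I, which carry its redox centres, had a median log2 ratio of -0.06 over 7 genes, which turned positive (0.08) with TMM scaling and 0.09 with the median of expressed genes at 0. NDUFS7, an iron-sulphur subunit, was the highest at 0.27 (0.14 to 0.39), from 1016 to 1072 counts. NDUFV1, the FMN subunit where NADH is oxidised, was the lowest at -0.23 (-0.32 to -0.14), from 2287 to 1710 counts. Its partner NDUFV2 followed at -0.20 (-0.30 to -0.11), from 2165 to 1648 counts, and had the highest level per length of the group (119 and 97.1 TPM). NDUFS8, which carries iron-sulphur clusters, was next below NDUFS7 at -0.02 (-0.15 to 0.10). 6 of the 7 genes were lower by library total, and all were within 1.5-fold.

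The 30 accessory subunits of complex I had a median of 0.00, with 15 higher and 15 lower, 0.14 with TMM scaling and -0.09 in the deposited TPM. NDUFA5 (chr7:123177051-123241705) stood apart, with 434 counts in control and 144 in ENZ, 3.40 and 1.21 TPM, a log2 ratio of -1.39 (-1.68 to -1.13). The next lowest was NDUFS4, with 290 and 208 counts (-0.29, or -0.55 to -0.03). At the other end, NDUFA2 had 181 and 233 counts (0.55, or 0.27 to 0.84) and NDUFA3 had 182 and 222 counts (0.47, or 0.19 to 0.77). NDUFA4, long counted with complex I and now known as a complex IV subunit, had 3466 and 4030 counts (0.41, or 0.34 to 0.47). NDUFB9 had the highest level per length, 216 and 189 TPM, and a log2 ratio of -0.11 (-0.18 to -0.03). By library total the intervals for counting error thus excluded 0 for some members, but apart from NDUFA5 at ratios under 1.5-fold.

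Complex II, the succinate dehydrogenase, had 3 of its 4 genes higher and a median of 0.08 (-0.00 in the deposited TPM). SDHA, the flavoprotein that oxidises succinate, had 1575 and 1445 counts (0.07, or -0.04 to 0.17). Its 3 pseudogenes in the table, SDHAP1, SDHAP2 and SDHAP3, had 162 and 128, 126 and 89, and 20 and 27 counts, and reads could be split between them and SDHA. SDHB, the iron-sulphur subunit, had 977 and 919 counts (0.10, or -0.03 to 0.23). Of the membrane anchors, SDHC had 4470 and 4526 counts (0.21, or 0.15 to 0.27) and SDHD had 1630 and 1159 (-0.30, or -0.41 to -0.19). The anchors thus stood on opposite sides of 0, and SDHD stayed under 0 with TMM scaling (-0.16) while SDHC stayed above 0 (0.35).

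Complex III had a median of 0.08 over 8 genes (-0.01 in the deposited TPM), with 6 higher. UQCRQ, a small subunit beside cytochrome b, had 758 and 946 counts (0.51, or 0.37 to 0.65), and UQCRFS1, the Rieske iron-sulphur protein, had 1795 and 1871 (0.25, or 0.16 to 0.34). UQCRB, the ubiquinone-binding protein, had 627 and 436 counts (-0.33, or -0.51 to -0.16), and UQCRC2, a core protein, had 2275 and 1755 (-0.18, or -0.28 to -0.09). UQCRH, the hinge protein that contacts cytochrome c1, had the highest level per length (141 and 135 TPM) and a log2 ratio of 0.03 (-0.07 to 0.12). Of the nuclear subunits of complex IV, all 9 that reached 1 CPM were above 0, from 0.02 to 0.44, with a median of 0.19. COX7C had 1443 and 1719 counts (0.44, or 0.34 to 0.54) and COX7A2 2395 and 2648 (0.33, or 0.25 to 0.41). The intervals of COX6B1 (6158 and 5481 counts, 0.02), COX7B (188 and 168 counts, 0.03) and COX6C (428 and 409 counts, 0.12) included 0. In the deposited TPM 6 of the 9 were above 0, and COX6B1 (-0.06), COX7B (-0.06) and COX8A (-0.01) were under it. Over all nuclear members, 23 intervals included 0, 20 lay above it and 15 below.

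**Figure D1:**
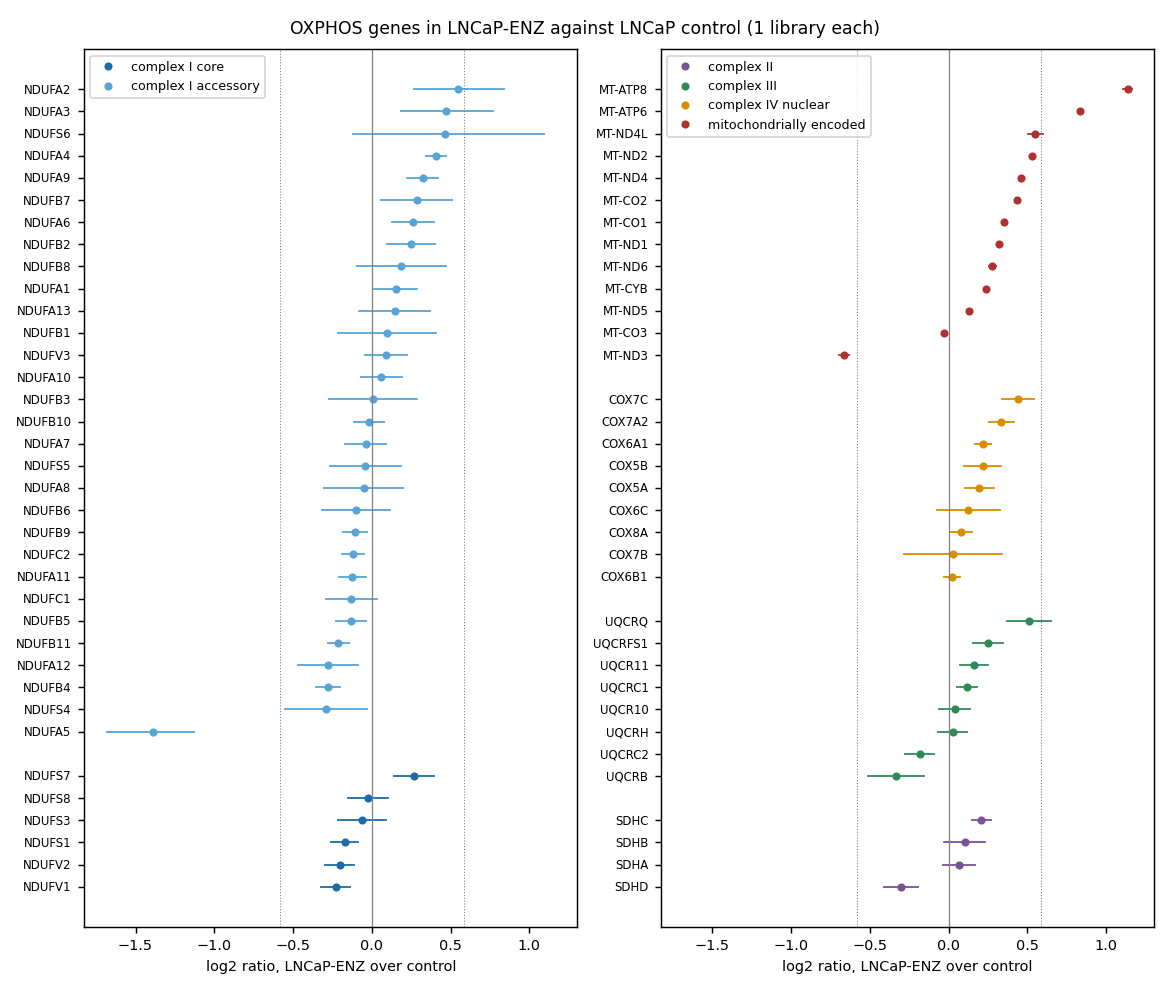
Log2 ratio of LNCaP-ENZ over LNCaP control (x axis) for 57 of the 58 nuclear and the 13 mitochondrially encoded OXPHOS genes with a mean of at least 1 CPM, by complex, from 1 library each. Points are ratios of CPM + 0.1, lines are exact 95% intervals for counting error, and dotted lines mark 1.5-fold: MT-ATP8 (1.14) and MT-ATP6 (0.83) lie to the right of them, MT-ND3 (-0.66) and NDUFA5 (-1.39) to the left, and all other points between them.

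The tissue-specific isoforms were near the detection limit in both lines, beside highly expressed general isoforms. COX6A2, the heart and muscle partner of COX6A1, was at 0 in all 8 libraries, and COX6A1 (chr12:120875893-120878545) was at 6323 and 6452 counts in LNCaP (564 and 618 TPM, log2 ratio 0.22, 0.17 to 0.27). COX8C, a testis isoform, was at 0 counts in LNCaP, where 0 allows up to 0.147 CPM (control) and 0.167 CPM (ENZ) at a floor of 3 counts, while COX8A had 3517 and 3258 counts (0.08, or 0.01 to 0.15). COX7B2 had 5 counts in each LNCaP library and was at 0 in all 6 DU145 libraries. COX6B2 had 2 and 0 counts in LNCaP. COX7A1, the muscle partner of COX7A2, had 3 and 15 counts, a log2 ratio of 1.92 with an interval from 0.69 to 4.94, at 0.201 and 1.08 TPM. In DU145, COX7A1 was between 0.119 and 0.495 FPKM and COX8C between 0 and 0.225 FPKM, both under the minimum for testing. Of the retrocopies, UQCRHL had 10 and 6 counts beside 2124 and 1895 of UQCRH, UQCRFS1P1 70 and 64, UQCRBP1 10 and 5, and UQCRC2P1, UQCRFS1P3, UQCRHP2 and UQCRHP3 had 0. Each is a near copy of its parent gene, so its counts are uncertain.

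In DU145 no OXPHOS member passed the test between shPAX6 and shCON. Of the 77 members 73 had a mean of at least 0.5 FPKM, and 0 of these had an adjusted p under 0.05 by limma, where 1.20% of all 13574 tested features did. At an unadjusted p under 0.05 there were 2, of which MT-ND6 is described below, against 18.3% of all features. The median log2 fold change was 0.05 over the 59 nuclear members tested and 0.16 over the 13 mitochondrially encoded ones, beside -0.12 over all features. Of all 13574 tested features 5032 were above 0 and 8542 below. The groups did not overlap for 5 members with shPAX6 higher (6.70% of all features did so) and for 3 with shPAX6 lower (20.0% of all features). Fold changes here are on the log2(FPKM + 0.1) scale.

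The spread within shPAX6 was the main feature of the nuclear members. In shPAX6 library 1 the median nuclear member lay 0.55 above the shCON mean on the log2 scale, in library 2 it lay 0.38 below, and in library 3 it was at -0.01. Of the 59, 49 had their highest of 6 values in shPAX6 library 1 (83.1%, against 19.7% of all features), and 48 their lowest in shPAX6 library 2 (81.4%, against 24.5%). The level in library 1 was 2.05 times that in library 2 for the median member, from 0.273 (NDUFS1) to 3.24 (UQCRQ), and was over 1.5 times in 46 of the 59. The SD of the log2 values was larger in shPAX6 than in shCON for 58 of 59 nuclear members (84.3% of all features), with medians of 0.53 and 0.11. Without shPAX6 library 1 the nuclear median was -0.19 and without library 2 it was 0.30, so its sign depended on which of these libraries was used. In the fit without library 2, 2 of 73 tested members (NDUFA12 and NDUFA4) passed the test, and so did 903 of all 13574 features.

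**Figure D2:**
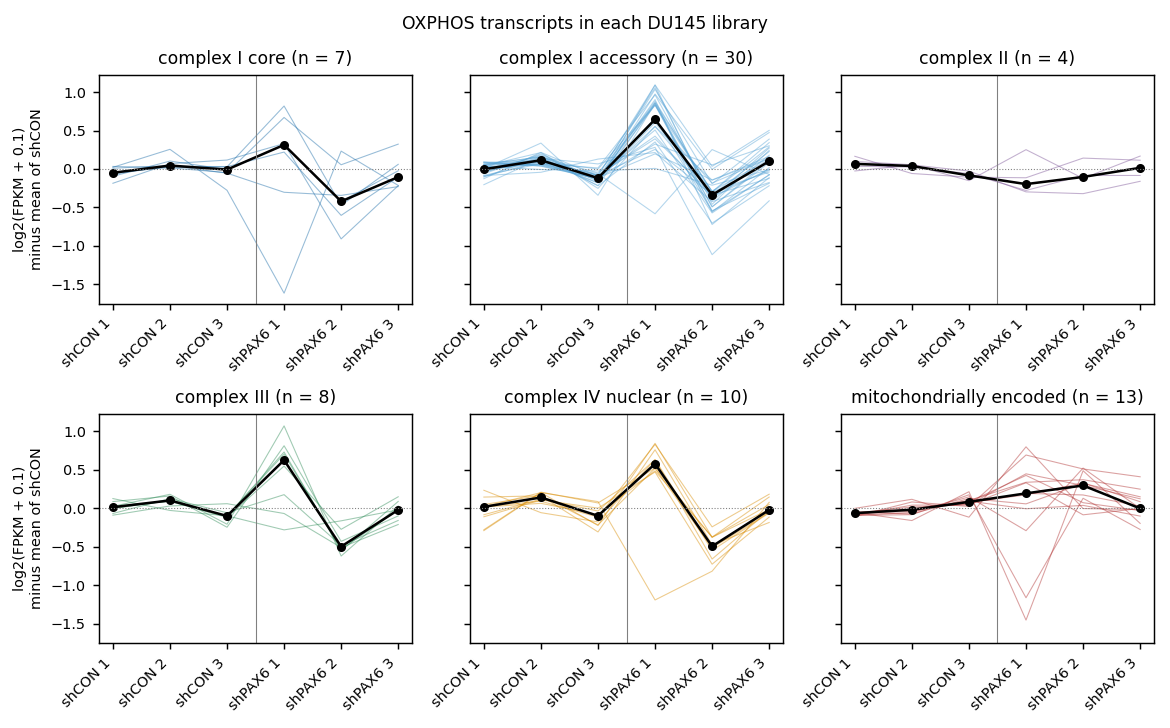
Log2(FPKM + 0.1) minus the mean of the 3 shCON libraries (y axis) in each of the 6 DU145 libraries (x axis), for each OXPHOS gene with a mean of at least 0.5 FPKM (thin lines) and for the median of the group (black). The medians of complex I accessory, complex III and complex IV genes are between 0.58 and 0.65 in shPAX6 library 1 and between -0.50 and -0.34 in library 2, while complex II and the mitochondrially encoded genes do not share this course.

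This course went with transcript length, and the libraries also differed with GC content: the rank correlation of the deviations with GC was -0.625 in shPAX6 library 2, 0.248 in shPAX6 library 1 and 0.532 in shCON library 2. The 34 tested nuclear members with a transcript under 1000 bases had medians of 0.70 in shPAX6 library 1 and -0.42 in library 2, and all 34 had their highest value in library 1. All 771 tested features under that length had medians of 0.56 and -0.35, and 76.4% had their highest value there. The 25 longer nuclear members had medians of 0.21 and -0.32, where the 11238 longer features had -0.38 and 0.03. The nuclear members have a median transcript length of 804 bases, against 3253 for all tested features. With a correction for length in each library, the nuclear medians were 0.28 and -0.09 in these libraries, the median log2 fold change was 0.10, and 2 members, NDUFV2 (log2 fold change 0.36, adjusted p = 0.0385) and NDUFA12 (0.54, adjusted p = 0.023), passed the test, among 1361 features called of 12009. With a correction for GC content instead, the nuclear medians were 0.93 in shPAX6 library 1 and -0.33 in library 2, the median log2 fold change was 0.20 and 0 members passed. The part of length or GC content in the result was not tested.

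**Figure D3:**
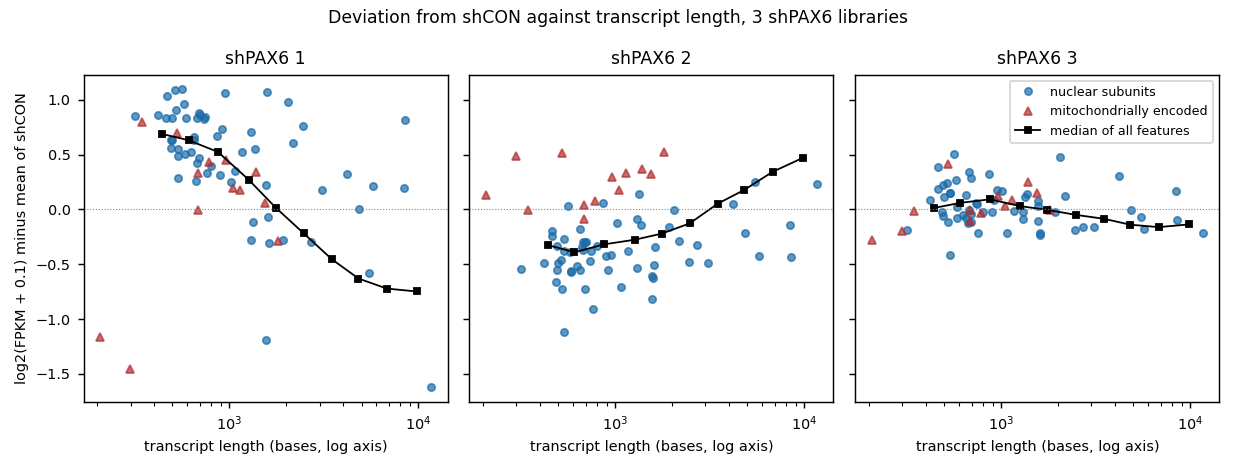
Deviation of each member from the shCON mean on the log2(FPKM + 0.1) scale (y axis) against the length of its canonical transcript in bases (x axis, log scale), in each of the 3 shPAX6 libraries. Circles are nuclear subunits, triangles mitochondrially encoded genes and squares medians of all tested features in classes of length, which go from 0.69 in the shortest class to -0.75 in the longest in library 1 and from -0.33 to 0.47 in library 2, with most nuclear members at the short end.

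The core subunits of complex I had the lowest median, -0.16, with 2 of 7 above 0. This turned positive with median centring (0.01), with the GC correction (0.17) and without shPAX6 library 2 (0.06). NDUFV2 was at 131, 129 and 124 FPKM in shCON and 203, 133 and 160 in shPAX6, with a log2 fold change of 0.35 ± 0.17 (SE, adjusted p = 0.339), so the groups did not overlap. NDUFS1, the largest subunit and one with a transcript of 11660 bases, varied between libraries: it was at 13.6, 16.0 and 11.04 FPKM in shCON and at 4.31, 15.8 and 11.6 in shPAX6 (-0.53 ± 0.44, adjusted p = 0.589). NDUFS8, with the highest level per length in the group, was at 222, 233 and 234 FPKM in shCON and 405, 165 and 239 in shPAX6 (0.14 ± 0.30, adjusted p = 0.859).

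The accessory subunits of complex I had a median of 0.15, with 23 of 30 above 0, but -0.11 without shPAX6 library 1. NDUFA12, which sits near the NADH-oxidising arm, had the largest value: 93.3, 93.4 and 77.4 FPKM in shCON and 187, 89.8 and 124 in shPAX6, a log2 fold change of 0.54 (95% interval -0.06 to 1.14, adjusted p = 0.321). NDUFA4 followed at 62.5, 65.4 and 53.0 FPKM in shCON and 118, 59.9 and 83.4 in shPAX6 (0.48, or -0.08 to 1.05, adjusted p = 0.352). In each, shPAX6 library 2 lay within the shCON range. NDUFB7 was the lowest, at 62.4, 79.2 and 75.3 FPKM in shCON and 87.5, 33.2 and 54.0 in shPAX6 (-0.42, or -1.17 to 0.34, adjusted p = 0.56), and NDUFA6 was next, with 42.8, 45.6 and 35.2 FPKM against 52.3, 25.1 and 35.2 (-0.19, or -0.80 to 0.42, adjusted p = 0.761). NDUFA11 had the highest level per length, 257, 285 and 275 FPKM in shCON and 532, 208 and 329 in shPAX6. NDUFA5, which was lower in LNCaP-ENZ, was at 16.1, 17.01 and 15.5 FPKM in shCON and 10.8, 19.3 and 15.4 in shPAX6 (-0.13, or -0.64 to 0.37). Its transcript has 5496 bases, and it is one of 6 nuclear members that were lower in shPAX6 library 1 than in library 2.

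The genes of complex II differed little between shPAX6 libraries 1 and 2, with ratios from 0.837 (SDHD) to 1.30 (SDHB). SDHA was at 160, 169 and 160 FPKM in shCON and 133, 131 and 146 in shPAX6, with all shPAX6 libraries under all shCON libraries and a log2 fold change of -0.26 ± 0.12 (adjusted p = 0.301). SDHC was at 24.3, 24.1 and 22.7 FPKM in shCON and 19.5, 22.3 and 22.3 in shPAX6, again without overlap (-0.15, or -0.45 to 0.15). SDHB was at 99.8, 96.9 and 83.9 FPKM against 111, 85.7 and 105 (0.10, or -0.25 to 0.44), and SDHD at 74.2, 63.5 and 61.4 FPKM against 61.1, 73.0 and 71.6 (0.05, or -0.27 to 0.37). The 4 transcripts have between 1015 and 2693 bases, longer than most of the other members.

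In complex III the median was 0.07, with 5 of 8 above 0, but -0.27 without shPAX6 library 1, -0.03 with quantile normalization and -0.02 when scaled to the nuclear sum. UQCRQ was at 133, 148 and 113 FPKM in shCON and 275, 84.8 and 133 in shPAX6 (0.16, or -0.74 to 1.06), the widest span between shPAX6 libraries. UQCRC1, a core protein, was at 152, 166 and 169 FPKM in shCON and 155, 114 and 140 in shPAX6 (-0.26, or -0.61 to 0.09, adjusted p = 0.41). UQCRFS1 followed with -0.16 (-0.59 to 0.28), and UQCRH, the highest per length, was at 295, 308 and 266 FPKM against 423, 239 and 321 (0.14, or -0.36 to 0.64). The retrocopy UQCRHL was at 1.64, 1.63 and 1.14 FPKM against 1.36, 1.08 and 1.29 (-0.21, or -0.79 to 0.37).

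For complex IV the nuclear median was 0.02 over 10 tested genes, and 6 were above 0. It was -0.29 without shPAX6 library 1, -0.12 with quantile normalization and -0.06 when scaled to the nuclear sum. COX6A1, the most abundant nuclear member per length, was at 513, 530 and 480 FPKM in shCON (508 ± 25.9, SD, n = 3) and 711, 391 and 562 in shPAX6 (555 ± 160), a log2 fold change of 0.09 (-0.44 to 0.61). COX8A was at 431, 496 and 446 FPKM against 709, 312 and 438 (0.01, or -0.65 to 0.67). COX7A2 had the largest positive value, at 108, 113 and 97.6 FPKM against 188, 89.4 and 120 (0.26, or -0.34 to 0.86), and COX6C was next (0.17, or -0.52 to 0.87). COX6B2, a sperm isoform of COX6B1, was the lowest at -0.65 (-1.56 to 0.26), with values of only 0.575, 0.851 and 0.777 FPKM in shCON and 0.261, 0.368 and 0.772 in shPAX6, beside 282, 230 and 212 and then 372, 152 and 235 FPKM for COX6B1. COX5B had -0.12 (-0.78 to 0.53), and COX7B was at 130, 132 and 95.2 FPKM against 200, 84.8 and 104 (0.03, or -0.70 to 0.77), beside COX7B2 at 0. The intervals of COX8A and COX7B reach past 1.5-fold in either direction, so a difference of that size was neither called nor excluded for them. The same holds for other members, among them COX6B1 (-0.74 to 0.70) and UQCRQ (-0.74 to 1.06).

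The mitochondrially encoded genes took 4.62%, 4.65% and 5.21% of the summed FPKM in shCON and 4.25%, 5.79% and 4.58% in shPAX6, so the groups overlapped. The nuclear members took 1.30%, 1.36% and 1.24% in shCON and 1.65%, 1.04% and 1.28% in shPAX6, which put the ratio of mitochondrial to nuclear OXPHOS FPKM at 3.54, 3.43 and 4.22 in shCON and 2.58, 5.55 and 3.58 in shPAX6. Of the 13 genes 10 had a positive log2 fold change. The median of 0.16 was 0.33 with median centring and -0.11 with quantile normalization.

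MT-ND6, the complex I subunit encoded on the minus strand, had the smallest p of all members. It was at 441, 502 and 482 FPKM in shCON (475 ± 31.3) and 767, 677 and 631 in shPAX6 (692 ± 69.6), so the lowest shPAX6 value exceeded the highest shCON value. Its log2 fold change was 0.54 ± 0.15 (95% interval 0.20 to 0.88, unadjusted p = 0.00667), but the adjusted p of 0.117 missed the threshold. Its neighbour on the opposite strand, MT-ND5, was at 428, 440 and 507 FPKM against 373, 657 and 456 (0.08, or -0.44 to 0.59). MT-ND4, MT-ND1 and MT-CYB also had every shPAX6 value above every shCON value. MT-ND4 was at 1196, 1213 and 1340 FPKM in shCON and 1578, 1615 and 1483 in shPAX6 (0.32, or -0.03 to 0.67, adjusted p = 0.316). MT-ND1 was at 1477, 1561 and 1596 FPKM against 2107, 1896 and 1682 (0.29, or -0.09 to 0.67, adjusted p = 0.41). MT-CYB was at 616, 636 and 680 FPKM against 726, 808 and 683 (0.20, or -0.14 to 0.53, adjusted p = 0.525).

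The complex IV subunits overlapped between the groups. MT-CO1 was at 3379, 3334 and 3829 FPKM in shCON and 3650, 4390 and 3890 in shPAX6 (0.18, or -0.25 to 0.61). MT-CO2 was at 4104, 4485 and 4507 FPKM against 5490, 4111 and 4355 (0.08, or -0.38 to 0.55). MT-CO3 was at 1604, 1651 and 1774 FPKM against 2253, 1761 and 1640 (0.16, or -0.27 to 0.58). Of the remaining complex I genes, MT-ND2 was at 1941, 1981 and 2105 FPKM against 2297, 2264 and 2047 (0.13, or -0.24 to 0.50), and MT-ND3 at 333, 361 and 307 against 580, 332 and 329 (0.26, or -0.29 to 0.81), with library 1 alone above the shCON range.

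The 2 shortest mitochondrial genes went against the pattern of short transcripts. MT-ATP8, of 207 bases, was at 2523, 2539 and 3038 FPKM in shCON and 1200, 2944 and 2221 in shPAX6 (-0.44, or -1.20 to 0.32). MT-ND4L, of 297 bases, was at 1144, 1065 and 1381 FPKM in shCON and 434, 1669 and 1038 in shPAX6 (-0.39, or -1.43 to 0.65). Both were lowest in shPAX6 library 1, where the short nuclear members were highest, and both overlap a longer gene that was not low there. MT-ATP6 was at 2650, 2795 and 2998 FPKM in shCON and 2798, 2885 and 2619 in shPAX6 (-0.02, or -0.41 to 0.37). How the deposited values divide the reads of overlapping genes is not given.

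**Figure D4:**
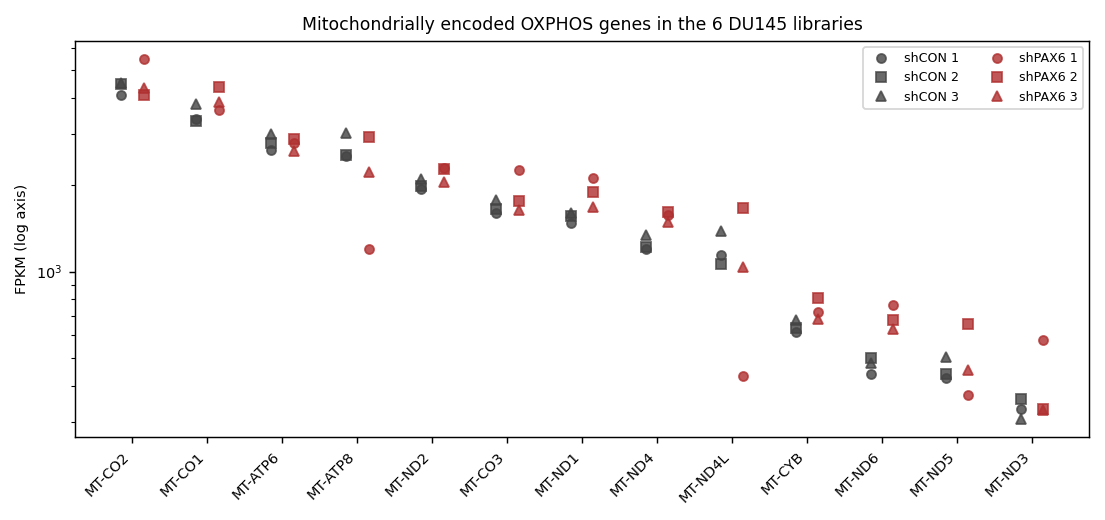
FPKM (y axis, log scale) of the 13 mitochondrially encoded genes in the 6 DU145 libraries, ordered by the shCON mean, with shCON in grey and shPAX6 in red and a symbol per library. All 3 shPAX6 values lie above all shCON values for MT-ND6, MT-ND4, MT-ND1 and MT-CYB, and MT-ATP8 (1200 FPKM) and MT-ND4L (434 FPKM) are lowest in shPAX6 library 1.

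The order of levels was broadly shared by the lines, in different units and separately processed tables, so only ranks are set side by side. The mitochondrial genes stood above nearly all nuclear members in each line, and MT-CO2 had the highest level per length in both. Over the 63 nuclear members Spearman's rho between the shCON mean FPKM and the LNCaP control TPM was 0.552, and over the 13 mitochondrial genes 0.643. Both are given as descriptions, since the members share the libraries within each line. The length listed for LNCaP can differ from that of the canonical transcript used here for DU145, as for NDUFA9 (1609 and 8356 bases). The length by which the deposited DU145 values were divided is not given. The part of length in these ranks was not tested. Among the nuclear members found by symbol, COX6A1, COX8A, COX6B1 and COX7C were the 4 highest of complex IV in each line, and UQCRH and UQCRC1 the 2 highest of complex III. Complex II had the reverse order, with SDHA highest in DU145 (163 FPKM) and lowest in LNCaP (28.8 TPM), and SDHC lowest in DU145 (23.7 FPKM) and highest in LNCaP (79.0 TPM).

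**Figure D5:**
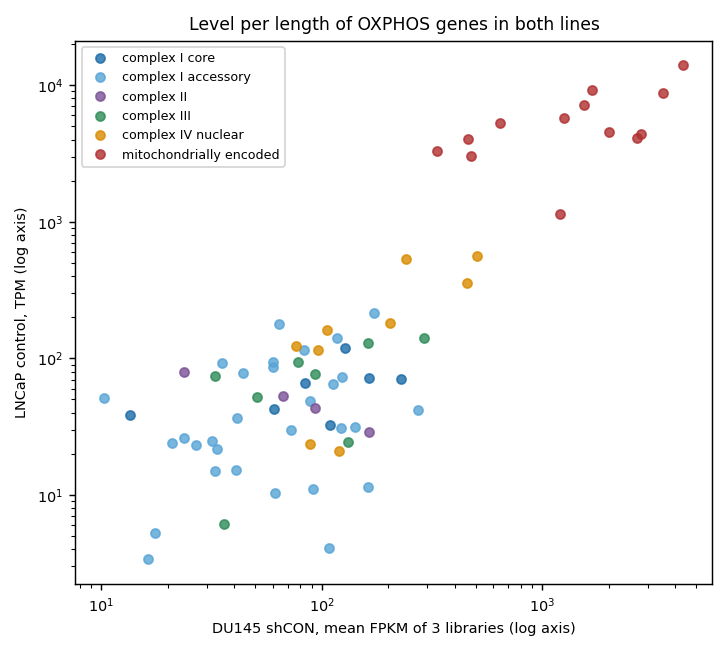
LNCaP control TPM (y axis, log scale) against the mean FPKM of the 3 DU145 shCON libraries (x axis, log scale) for the 71 nuclear and mitochondrially encoded members at 0.5 or more in both. Mitochondrially encoded genes form the upper right, with MT-CO2 highest on both axes (4366 FPKM and 13950 TPM), and COX6A1, COX8A and COX6B1 are the highest in LNCaP of the nuclear members plotted.

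The remaining genes of the pathway were given by 8 lists of 127 genes in all, which were put together with results of these data known. In DU145, 124 of them were tested and 2 passed (1 higher, 1 lower), with 1.20% of all features called. COX20, a chaperone that helps MT-CO2 into complex IV, rose from 11.3, 11.1 and 9.79 FPKM to 19.7, 22.5 and 21.1 FPKM, a log2 fold change of 0.97 ± 0.14 (SE, adjusted p = 0.0281). POLRMT, the RNA polymerase that transcribes the mitochondrial chromosome, fell from 40.6, 44.04 and 46.2 FPKM to 27.6, 26.0 and 27.2 FPKM, a log2 fold change of -0.69 ± 0.12 (adjusted p = 0.0449). For both genes the 3 shPAX6 libraries were close together and apart from shCON. COX20 was called in 10 of 18 alternatives (adjusted p 0.00313 to 0.23) and POLRMT in 5 of 18 (0.0146 to 0.512), with a log2 fold change of -0.29 under the GC correction. Leaving out any shCON library or shPAX6 library 3 ended both calls, and the replicate block, in which 0 features were called, gave adjusted p = 0.213 for COX20 and 0.274 for POLRMT. In LNCaP-ENZ, COX20 was at 514 and 317 counts (log2 ratio -0.51) and POLRMT at 1345 and 1512 (0.36).

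The nuclear ATP synthase genes behaved in DU145 like the short subunits of the respiratory chain. None of 18 was called, 16 were above 0, the median was 0.19, and the median deviation was 0.67 in shPAX6 library 1 and -0.27 in library 2. ATP5MJ (0.42 ± 0.29) and ATP5F1E (0.40 ± 0.39) were the highest, and ATP5ME (-0.52 ± 0.37) and ATP5F1A, the catalytic partner subunit alpha (-0.14 ± 0.51), the lowest. In LNCaP all 18 were within 1.5-fold (median 0.06), from ATP5MC1 (989 and 697 counts, -0.31) and ATP5PO (3685 and 2778, -0.22) to ATP5MJ (1159 and 1245, 0.29) and ATP5MK (461 and 503, 0.31).

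Among the other subunits and cytochrome c, none of 8 tested was called in DU145 and none was past 1.5-fold in LNCaP. Cytochrome c (CYCS) had the largest value in DU145, at 53.3, 48.9 and 42.7 FPKM in shCON and 68.0, 64.1 and 69.3 in shPAX6, without overlap (0.48 ± 0.13, adjusted p = 0.118), followed by HIGD1A (0.26 ± 0.14). HIGD2A (-0.22 ± 0.23) and CYC1 (-0.05 ± 0.22), the cytochrome c1 of complex III, were the lowest there. In LNCaP, HIGD2A (2167 and 2443 counts, 0.36) and CYC1 (10290 and 11508 counts, 0.35) were the highest, and NDUFAB1 (-0.27) and NDUFA4L2 (-0.13) the lowest. NDUFA4L2, the hypoxia-induced relative of NDUFA4, set the lines apart in level, with 2606 and 2087 counts in LNCaP (112 and 96.3 TPM, against 85.9 and 107 TPM of NDUFA4) and between 1.14 and 3.16 FPKM in DU145. COX4I2, the lung isoform of COX4I1, was at 0 in every library.

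Of the assembly factors, none of 19 for complex I was called in DU145 (median -0.02) and none was past 1.5-fold in LNCaP by library total (median 0.03). With TMM scaling 4 of the 19 were higher past it in LNCaP (21.1%), against 10.8% of all genes. TMEM186 (-0.50 ± 0.20, adjusted p = 0.251) and ACAD9 (-0.22 ± 0.13) were lowest in DU145, each without overlap, and NDUFAF4 (0.43 ± 0.21) and TIMMDC1 (0.26 ± 0.14) highest, and in LNCaP NDUFAF2 (-0.55) and NUBPL (-0.36) were lowest and NDUFAF4 (0.50) and NDUFAF8 (0.48) highest. None of the 10 for complexes II and III was called in DU145. SDHAF4 came nearest, at 5.40, 4.42 and 5.57 FPKM in shCON and 2.95, 2.77 and 2.98 in shPAX6 (-0.80 ± 0.18, adjusted p = 0.0835). UQCC1 was at -0.26 ± 0.12, and UQCC3 (0.19 ± 0.35) and SDHAF2 (0.20 ± 0.16) were the highest. In LNCaP, LYRM7, a chaperone of the Rieske protein, was lower past 1.5-fold (420 and 190 counts, -0.95, or -1.21 to -0.70) and UQCC3, needed for cytochrome b, higher (207 and 317 counts, 0.80, or 0.55 to 1.06), with SDHAF3 at -0.44 and BCS1L at 0.45.

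For complex IV assembly, COX20 was the single call among 22 tested genes in DU145. CMC2 was next above 0 (0.55 ± 0.20, adjusted p = 0.219), and COX18 (-0.41 ± 0.45) and SCO2 (-0.31 ± 0.21) were the lowest. In LNCaP, COX11, which places copper in MT-CO1, was lower past 1.5-fold (757 and 329 counts, -1.01, or -1.20 to -0.82), and SCO2, which places copper in MT-CO2, was higher (574 and 779 counts, 0.63, or 0.47 to 0.79), with COA4 at 0.49.

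The genes that copy, transcribe and stabilise mitochondrial DNA and RNA had a median log2 ratio of -0.01 in LNCaP, with 6 of 21 lower past 1.5-fold (28.6%) and 0 higher, a share near the 24.1% of all genes that were lower. With TMM scaling 3 of them (MTERF2, TEFM and LRPPRC) were lower past 1.5-fold (14.3%), against 17.7% of all genes, and POLG2 was higher. By library total the 6 were MTERF2 (81 and 30 counts, -1.20, or -1.90 to -0.62), TEFM, the elongation factor of POLRMT (108 and 52, -0.84, or -1.37 to -0.37), LRPPRC, which stabilises mitochondrial mRNAs (3132 and 1562, -0.81, or -0.90 to -0.73), MTERF1 (125 and 69, -0.65), TFAM, which packs mitochondrial DNA and opens its promoters (520 and 293, -0.63, or -0.85 to -0.43), and TFB1M (146 and 83, -0.61). POLG2 (0.47) and POLRMT (0.36) were the highest. These ratios stand beside higher CPM of 11 of the 13 mitochondrial mRNAs in the same 2 libraries. In DU145, POLRMT was the single call among 21 (median 0.10), POLG, the DNA polymerase, was next below 0 (-0.35 ± 0.17), and SLIRP, the partner of LRPPRC (0.55 ± 0.39), and FASTK (0.40 ± 0.20) were the highest.

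Of the 8 tested regulators of the pathway, none was called in DU145. ESRRA was at 27.7, 29.2 and 31.6 FPKM in shCON and 20.4, 19.7 and 21.4 in shPAX6, without overlap (-0.52 ± 0.12, adjusted p = 0.0923), and NRF1 at 9.11, 9.51 and 8.22 against 4.14, 7.55 and 7.11, also without overlap (-0.55 ± 0.25, adjusted p = 0.294), while GABPB1 (0.36 ± 0.17) and MYC (0.18 ± 0.14) were the highest. In LNCaP, GABPA (404 and 209 counts, -0.76, or -1.01 to -0.52) and the coactivator PPARGC1A (72 and 36 counts, -0.78, or -1.43 to -0.21) were lower past 1.5-fold, and PPRC1 (0.52) and NRF1 (0.31) were the highest. GABPA and PPARGC1A were 2 of the 9 regulators that reached 1 CPM (22.2%), where 24.1% of all genes were lower past 1.5-fold. In the citrate cycle list, 14 of 18 genes were below 0 in DU145, where 8542 of all 13574 tested features were, and none was called. IDH2, the NADP-dependent isocitrate dehydrogenase, was at 26.8, 28.6 and 31.02 FPKM in shCON and 17.2, 16.1 and 19.1 in shPAX6 (-0.72 ± 0.13, adjusted p = 0.0559), and SUCLG2, a subunit of succinyl-CoA ligase, at 22.1, 18.1 and 20.2 against 8.53, 14.8 and 11.8 (-0.81 ± 0.22, adjusted p = 0.115), each without overlap. SUCLG1 (0.16 ± 0.16) and DLD (0.05 ± 0.23) were the highest. In LNCaP, 2 of the 18 were lower past 1.5-fold (11.1%, against 24.1% of all genes). They were DLD (1145 and 504 counts, -0.99, or -1.15 to -0.84) and SUCLG2 (835 and 483 counts, -0.60, or -0.76 to -0.44). DLST (2048 and 2692 counts, 0.58) and IDH3G (440 and 576, 0.58) were the highest. With TMM scaling DLD alone was lower past it (5.56%, against 17.7% of all genes), and 3 were higher (16.7%, against 10.8%).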

How the data were processed

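RNA-seq of LNCaP (1 control and 1 ENZ library) and DU145 (3 shCON and 3 shPAX6 libraries) was analysed from the deposited tables, and the 6 ATAC-seq samples were not used here. Libraries were grouped by their labels. The study's methods give oligo-dT priming of the cDNA, HISAT2 as the aligner to GRCh37 and StringTie for quantification. The submitters' processing notes also name STAR, and the labels describe another library kit than the methods. The methods speak of replicates, but the LNCaP table holds 1 library per arm. The LNCaP table deposited by the authors holds unnormalised gene counts and the authors' TPM. For DU145 the unit is not named in the table, and what the authors deposited was taken to be FPKM, scaled by length and library size. These hold no depth, so no count test was run. 0 columns of values were left unmapped.

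Members were found by symbol and chromosome. The members, the gene lists and the tests were chosen with earlier results of these data known. Named genes were all mitochondrial genes, the SDH genes, the isoform pairs, and in each nuclear group and list the 2 largest changes in each direction and, in each nuclear group, the highest level per length. DU145 values were tested with limma 3.58.1 (lmFit, eBayes with an intensity trend) in R 4.3.3 after log2(FPKM + 0.1) transformation, keeping features whose mean reached 0.5 FPKM, two-sided, with Benjamini-Hochberg adjustment over all tested features and a threshold of 0.05. The fit was also run on simulated data with independent features and the same SD in both groups. The DU145 groups differ in spread and the libraries with transcript length, so that run does not bear on the results given here. LNCaP counts were divided by the library total, and log2 ratios of CPM + 0.1 were given for genes with a mean of at least 1 CPM, with exact (Clopper-Pearson) 95% intervals, which cover counting error only. TMM factors came from edgeR 4.0.16. Positions and lengths for DU145 came from the annotation lifted to GRCh37 (canonical transcript, else the longest), where 88.5% of tested features had a length, and promoters from RefSeq (GRCh38.p14). The length and GC corrections were loess fits per library (span 0.5, degree 2). Alternatives were other pseudocounts, filters and scalings, both corrections, the replicate block and each DU145 library left out. The values of 1 member and of 1 marker are not reported here.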

Additional observations from a re-analysis of the deposited data

How the results depend on the processing

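In DU145, 0 OXPHOS members were called, and 2 were called with the length correction and 2 without shPAX6 replicate 2, so the range over left-out libraries was 0 to 2. The other alternatives called 0. The median of the nuclear members (0.05) ranged from -0.19 to 0.30 over left-out libraries, within the spread of the library medians (pooled SD 0.34). It was 0.22 under median centring, 0.20 with the GC correction, 0.10 with the length correction, 0.00 under quantile normalization and -0.04 when scaled to the nuclear sum, so its sign was not stable. That of the mitochondrially encoded members (0.16) ranged from 0.13 to 0.20, with 0.33 under median centring and -0.11 under quantile normalization. The replicate block left the medians at 0.05 and 0.16 and called 0 members and 0 of all features, against 163 without it. The deviations of same-numbered libraries correlated at -0.17, -0.37 and 0.05, so the numbers were not taken as pairs. The number of features called was 920 without shPAX6 replicate 1, 903 without shPAX6 replicate 2, 0 without shCON replicate 1 or 3, 5 without shCON replicate 2 and 10 without shPAX6 replicate 3. It was 236 with a pseudocount of 1 and with quantile normalization, 235 with the GC correction, 108 without a filter, 100 with median centring, 90 when scaled to the nuclear sum and 1361 with the length correction. The split of calls into higher and lower was 24 and 139, and it was 28 and 72 with median centring, 74 and 162 with quantile normalization, 102 and 133 with the GC correction and 689 and 672 with the length correction.

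In LNCaP, the nuclear median (0.05) was 0.20 with TMM factors, 0.20 with the median of expressed genes at 0 and -0.04 in the deposited TPM. The mitochondrially encoded median (0.35) was 0.50, 0.51, 0.38, 0.39 and 0.27 with TMM factors, the median of expressed genes at 0, totals without mitochondrially encoded genes, totals without the 10 most counted genes and the deposited TPM. The count of nuclear members past 1.5-fold (1) was 6 with TMM factors, 6 with the median of expressed genes at 0, 2 without the 10 most counted genes and 3 with no filter. The share of all genes past it (30.6%) was 28.6%, 28.7%, 30% and 45.2% in these settings. Past 2-fold the count of nuclear members was 1. TMM factors also moved the related lists: 4 complex I assembly genes were higher past 1.5-fold (21.1%), and of complex IV assembly 6 were higher (28.6%) and 1 lower, of the citrate cycle 3 higher (16.7%) and 1 lower. Of all genes 10.8% were higher and 17.7% lower with TMM factors. The cause of these shifts is the scale or filter itself. No paired analysis was possible for LNCaP because it has 1 library per arm. Depth limits the isoforms and retrocopies with few counts, and for DU145 it is unknown.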
